A study of Mus musculus with 6 samples.

Results

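Liver of mice with a mutated Clock gene was compared directly with liver of mice labelled Cry-deficient, at the same circadian time and with no wild-type array in the ratio. The comparison sets loss of function in the activating arm of the circadian clock against loss of its cryptochrome repressors. Its members are the 2 arrays titled Clock mutant and the 2 titled Cry-deficient, 4 of the 6 arrays of the series, chosen by title and paired by time at CT02 and CT14. CT counts hours of the internal day, so that CT02 lies early in the subjective day and CT14 early in the subjective night. All animals were male and 8 to 10 weeks old. The source was total RNA of whole liver, with 1 one-colour Affymetrix array for each genotype and time. The wild-type arrays, from C57BL/6 mice, are in no ratio and are printed for reference. They do enter the scaling, the floor described below, the filter that kept genes and the choice of probe set. No source used here names the Clock allele, the strain background of either mutant or any pooling of animals, so genotype, strain and cohort cannot be told apart. The CT02 Cry-deficient array was described as lacking both Cry1 and Cry2 and the CT14 array only as Cry deficient.

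In the mammalian clock the CLOCK protein pairs with BMAL1, the product of Arntl, and the pair binds E-box sequences and activates transcription. Among the genes it drives are those of its own repressors, the PER and CRY proteins, which accumulate and shut the pair down until they are degraded. REV-ERB alpha and beta, encoded by Nr1d1 and Nr1d2, form a further loop that represses Arntl. In liver the same machinery reaches metabolism through output factors such as the PAR bZIP proteins DBP and TEF. Loss of CLOCK function takes activation from this loop, and loss of the cryptochromes takes away its main brake.

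Each array held 12488 probe sets. Of 8251 genes with a probe set naming that gene alone, 4844 were kept, those whose mean level over the 6 arrays reached the floor. The floor, the pooled median of the scaled intensities (606 scaled units), is the level below which no signal was read. A gene is given by its brightest probe set, and a fold with 1 side at or below the floor is a lower bound, written "at least". There was 1 array per genotype and time, so a fold at a single time has no replicate check, and precision is limited by the number of arrays. The Clock mutant CT02 array was the dimmest, with a mean deposited intensity of 1637, against 2182 to 2486 on the other mutant arrays. The 3' to 5' ratio of the Actb control probes, a sign of RNA length, was 2.68 on that array, 1.70 for Cry-deficient at CT02 and 0.840 to 1.15 on the other 4. For Gapdh the ratio reached 2.37 for Cry-deficient at CT02 and was 0.561 to 0.716 on the others. Their part in any difference at CT02 was not tested. The brightest 10% of kept genes had a median log2 ratio of Clock mutant over Cry-deficient of 0.12 at CT02 and -0.03 at CT14.

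The targeted genes were read first. At CT02 and CT14, Cry1 stood at 1963 and 366 scaled units in the Clock mutant, 3845 and 4718 under the Cry-deficient label, and 1833 and 2723 in wild type. It was brighter on the Cry-deficient arrays at both times, and lower in the Clock mutant by 1.96-fold at CT02 and at least 7.78-fold at CT14. Its probe set carries a mark for a sequence family, and no other Cry1 probe set reached the floor on any array. Cry2 read 1372 and 1886 in the Clock mutant, 1185 and 1344 under the Cry-deficient label and 1215 and 2256 in wild type. The Cry2 log2 ratios of Clock mutant over Cry-deficient were 0.21 and 0.49, well inside a 2-fold difference. No source used here places these probes inside or outside the deletions, so the label stays unchecked by them, and "Cry-labelled" is written below for those arrays. Clock itself read 1640 and 2069 in the Clock mutant and 1155 and 3025 on the Cry-labelled arrays, with log2 ratios of 0.51 and -0.55, and its level says nothing of the mutant allele.

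Promoters of 3 genes are shown because E-boxes are the sequences that CLOCK and BMAL1 bind, and these genes read lower in the Clock mutant at both times. The sequences are from RefSeq (GRCm38.p6), run from 250 bases before to 50 bases after an annotated transcription start, and carry the E-box CACGTG or its variant CACGTT, searched on both strands, in capitals. Cry1 lies at chr10:85185005-85185304 (minus strand), with the E-box at position -60 from the start and the variant at -79. Tef lies at chr15:81802423-81802722 (plus strand), with an E-box at -127. Tspan4, a membrane tetraspanin, lies at chr7:141476130-141476429 (plus strand), with an E-box at -51; this is its second start, and the window of the first holds none of the motifs searched.
Cry1 promoter: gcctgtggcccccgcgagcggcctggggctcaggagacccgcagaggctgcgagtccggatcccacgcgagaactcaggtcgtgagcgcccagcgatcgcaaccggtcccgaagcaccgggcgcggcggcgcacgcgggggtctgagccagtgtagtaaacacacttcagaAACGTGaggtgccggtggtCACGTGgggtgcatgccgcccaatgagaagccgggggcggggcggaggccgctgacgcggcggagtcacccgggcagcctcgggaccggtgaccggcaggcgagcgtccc
Tef promoter: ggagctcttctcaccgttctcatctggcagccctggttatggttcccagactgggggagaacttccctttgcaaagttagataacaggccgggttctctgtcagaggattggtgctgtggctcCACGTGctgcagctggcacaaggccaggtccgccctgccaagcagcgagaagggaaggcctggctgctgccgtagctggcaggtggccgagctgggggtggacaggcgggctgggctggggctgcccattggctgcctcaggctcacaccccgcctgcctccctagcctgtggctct
Tspan4 promoter: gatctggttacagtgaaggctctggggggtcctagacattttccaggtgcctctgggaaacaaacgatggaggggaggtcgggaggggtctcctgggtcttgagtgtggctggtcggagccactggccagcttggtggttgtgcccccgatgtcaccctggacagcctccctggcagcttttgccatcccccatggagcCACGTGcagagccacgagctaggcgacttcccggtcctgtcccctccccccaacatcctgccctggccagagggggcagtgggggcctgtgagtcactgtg
Matches of this kind are common. CACGTG was found in the window of 8.09% of the 27025 genes with a promoter in the table and of 12.2% of the 3923 kept genes with one. Of the genes at least 2-fold lower in the Clock mutant at both times, 11 of the 86 with a promoter held it (12.8%), and of those at least 2-fold higher, 6 of 50 (12%). CACGTT was in 5.44% of all promoters, and among 8 evening clock genes with a promoter it was in 3 (Cry1, Cry2 at -166 and Nr1d1 at -28), while CACGTG was in 2 (Cry1 and Tef). The D-box TTATGTAA, bound by PAR bZIP factors, was in 1.11% of all promoters and at -205 and -158 in Per3. None of the 3 motifs was in the window of Dbp, Nr1d2 or Usp2, which says only that these letters are not in that window.

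Most clock genes of the evening phase, which CLOCK and BMAL1 drive, read lower in the Clock mutant than on the Cry-labelled arrays, 8 of 10 at CT02 and 9 of 10 at CT14, with Cry2 and Per3 as exceptions. Both counts include Usp2 and Dbp, which passed the filter on dim genes only through their Cry-labelled values. At CT02 and CT14, Per2, a core repressor, stood at 651 and 778 scaled units in the Clock mutant, 3072 and 2665 on the Cry-labelled arrays and 251 and 4058 in wild type. Both Clock mutant values lay below both Cry-labelled values, by 4.72-fold at CT02 and 3.43-fold at CT14. Nr1d2, which encodes REV-ERB beta, read 22 and 1022 in the Clock mutant, 2906 and 3541 on the Cry-labelled arrays and 916 and 1366 in wild type. It was at least 4.79-fold lower at CT02 and 3.46-fold lower at CT14. In wild type Per2 lay far higher at CT14 than at CT02, while within each mutant its values at the times lay close together. Evening phase is the name given to the list. At CT02 and CT14 wild type read 4101 and 3007 for Nr1d1 and 4416 and 4340 for Per3. Neither of those genes was thus higher at CT14 in wild type.

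Genes on the output side of the clock followed, of which Usp2 had the widest difference. Usp2, a deubiquitinating enzyme under clock control, read -1781 and -1779 in the Clock mutant against 5264 and 3514 on the Cry-labelled arrays, with 733 and 3404 in wild type. It was at least 8.68-fold lower at CT02 and at least 5.80-fold lower at CT14, and its second probe set, at 625 and 416 against 2124 and 2108, had log2 ratios of -1.76 and at most -1.80. Dbp, a PAR bZIP activator, read -284 and -85 in the Clock mutant, 1836 and 2259 on the Cry-labelled arrays and -392 and 750 in wild type. It was at least 3.03-fold lower at CT02 and at least 3.73-fold lower at CT14. Negative values lie below background, so the brightest probe sets of Usp2 and Dbp gave no readable signal in the Clock mutant at either time. The second Usp2 probe set lay just above the floor there at CT02, at 625, and under it at CT14. Tef, which encodes a relative of DBP, read 2939 and 3552 against 7680 and 6790, 2.61-fold and 1.91-fold lower. Nr1d1, which encodes REV-ERB alpha, read 1877 and 1998 against 4035 and 3551, 2.15-fold and 1.78-fold lower. For both genes each Clock mutant value lay under both Cry-labelled values. Bhlhe40, which encodes the repressor DEC1, read 2133 and 3090 in the Clock mutant and 8924 and 4652 on the Cry-labelled arrays, 4.18-fold lower at CT02 and 1.51-fold lower at CT14.

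Among 10 kept clock genes of the evening phase, 7 were at least 2-fold lower in the Clock mutant at CT02, where 9.12% of all kept genes were, and 5 at CT14, where 5.49% of all genes were. Per2, Usp2, Dbp and Nr1d2 were past 2-fold at both times, as were 2.29% of all genes; Usp2 and Dbp passed the filter on dim genes only through their Cry-labelled values, so their presence in the count is no support for it. None of the 10 was 2-fold higher at either time. Their median log2 ratio was -1.49 at CT02 and -1.36 at CT14, against 0.01 and -0.01 over all kept genes. Usp2 and Dbp are in this median too, so its size is in part set by the filter. Cry2, given above, read higher in the Clock mutant at both times. Per3, another PER gene, read higher at CT02 only, with 3769 and 3473 in the Clock mutant, 3496 and 3984 on the Cry-labelled arrays and log2 ratios of 0.11 and -0.20. In a limma fit over both times, with 2 arrays per genotype and time as a block, Per2, Usp2 and Nr1d2 had an adjusted p of 0.0974 and Dbp one of 0.0980, above the threshold of 0.05. Tef, Nr1d1, Cry1 and Bhlhe40 had adjusted p-values of 0.157, 0.167, 0.167 and 0.195 in the same limma fit.

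**Figure D1:**
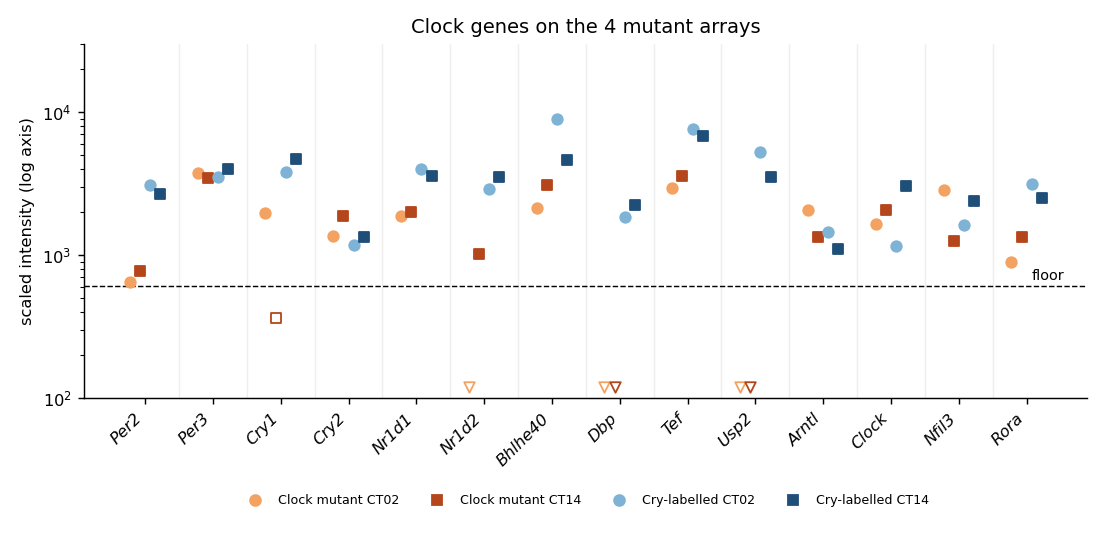
Scaled intensity (log axis, in scaled units) of the clock genes (x axis) on the 4 mutant arrays, coloured by genotype and marked by time, with the floor of 606 units as a dashed line; each symbol is 1 array. Open symbols lie at or below the floor, and open triangles at the lower edge stand for values below the plotted range; Per2, Usp2, Dbp and Nr1d2 show both Clock mutant arrays under both Cry-labelled arrays.

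The morning-phase genes showed no common direction. Arntl, which encodes the partner of CLOCK, read 2060 and 1348 in the Clock mutant and 1459 and 1097 on the Cry-labelled arrays, with log2 ratios of 0.50 and 0.30. Nfil3, a repressor at D-boxes, read 2859 and 1257 against 1628 and 2387, so its log2 ratio was 0.81 at CT02 and -0.92 at CT14, and on a second probe set -0.10 and -0.73, so its sign at CT02 is unsettled. Rora, which activates Arntl, read 891 and 1348 against 3140 and 2504, 3.53-fold lower at CT02 and 1.86-fold lower at CT14. Rora was the only one of the 4 kept genes of that phase past 2-fold, at CT02. Among 4 clock protein modifiers, Fbxw11, which encodes an F-box protein that marks PER for degradation, read 187 and 1029 against 1774 and 4719, at least 2.93-fold and 4.59-fold lower. A second Fbxw11 probe set had log2 ratios of -1.33 and 0.39, so the probe sets disagreed at CT14. Csnk1d, a kinase of PER proteins, had log2 ratios of -0.62 and -0.27, with 0.48 and -0.13 on another readable probe set. Csnk2a1, another kinase, had -0.38 and 0.57, with -0.10 and -0.62 on another, so the probe sets of both disagreed in sign at a time. Btrc, which encodes the relative of the Fbxw11 protein, had bounds of 0.89 and 0.53. Wee1, a cell cycle kinase gene with known E-boxes, read 172 and 72 in the Clock mutant and 1155 and 1566 on the Cry-labelled arrays, at least 1.91-fold and at least 2.58-fold lower. Wee1 passed the filter on dim genes only through its Cry-labelled values.

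Across all kept genes, 339 were at least 2-fold higher in the Clock mutant than on the Cry-labelled array at CT02 (7%) and 442 were at least 2-fold lower (9.12%). At CT14, 196 were higher (4.05%) and 266 lower (5.49%). Of these, 63 were higher at both times (1.3%) and 111 lower at both times (2.29%), so the 174 shared genes were 22.3% of the CT02 genes and 37.7% of the CT14 genes. The log2 ratios of the 2 times, which come from pairs with no array in common, had a Pearson r of 0.45 and a Spearman rho of 0.45 across the 4844 genes; genes are not independent replicates, and the arrays of a genotype may share strain and cohort. The split between higher and lower depended on scaling. With the values as deposited, which keep the dimmer Clock mutant array, the share of higher genes was 12.9% in place of 43.4% at CT02, 27.9% in place of 42.4% at CT14 and 15% in place of 36.2% at both times. The smallest differences counted at both times were at a log2 ratio of 1.002, and the nearest gene left out had 0.999.

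**Figure D2:**
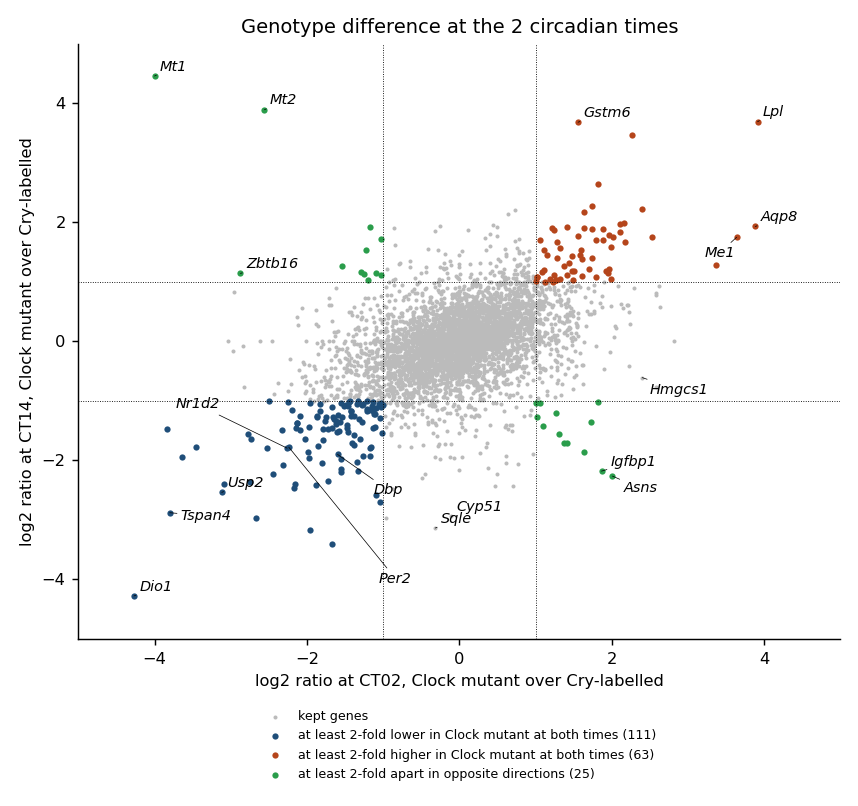
Log2 ratio of Clock mutant over Cry-labelled at CT14 (y axis) against that at CT02 (x axis) for 4844 kept genes, each point a gene, with lines at 2-fold. The lower left corner holds 111 genes and the upper right 63; 25 genes lie 2-fold apart in opposite directions, Mt1 and Mt2 farthest out.

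The limma fit tested 4843 genes for a difference alike at both times and leaves 1 residual degree of freedom per gene, so that its error also holds any change of the genotype difference between times. Dio1 fell and Lpl rose in the Clock mutant relative to the Cry-labelled arrays (limma, adjusted p = 0.0444 for each), 1 gene in each direction (0.0206% of the genes tested). Dio1, the deiodinase that turns thyroxine into active thyroid hormone, read 400 and 144 in the Clock mutant, 11689 and 11749 on the Cry-labelled arrays and 10522 and 13126 in wild type. It was at least 19.3-fold lower at CT02 and at least 19.4-fold lower at CT14, with a fitted log2 ratio of -4.27 (SE 0.23, n = 2 arrays per genotype). Lpl, lipoprotein lipase, which adult hepatocytes make little of, read 9132 and 7845 in the Clock mutant, 425 and 253 on the Cry-labelled arrays and 2761 and 685 in wild type. It stood at least 15.1-fold above the Cry-labelled level at CT02 and 12.9-fold at CT14, with a fitted log2 ratio of 3.80 (SE 0.24, n = 2), and its second probe set, at 2820 and 4640 against 14 and 474, gave bounds of 2.22 and 2.94. Both genes lay at the floor on both arrays of 1 genotype, where floored values carry no scatter, and 0 genes passed with 7 other settings. The SE of each gene was mostly pooled over all genes, with 3.99 prior degrees of freedom beside the 1 of the gene. In the limma fit 927 genes had an unadjusted p under 0.05 and 42 an adjusted p under 0.1, among them Per2, Usp2, Dbp and Nr1d2. Restricted to the 3999 genes above the floor on all 4 arrays, a choice made after the values were seen, the limma fit called 6 genes: Dynll2, Tspan4, Cyp26a1, Glns-ps1 and S100a13 lower and Cd59a higher, each at an adjusted p of 0.0444.

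Those 6 genes also headed the genes that were lower or higher at both times with all values readable. For Tspan4 the Clock mutant arrays gave 794 and 1248 scaled units, with 11062 and 9169 on the Cry-labelled arrays and 3565 and 8979 in wild type. It was 13.9-fold and 7.35-fold lower, the widest lower ratio of any gene readable on both arrays at CT02 and among the 5 widest at CT14. Dynll2, a dynein light chain, read 2386 and 2042 against 15236 and 15908, 6.38-fold and 7.79-fold lower, with wild type at 15163 and 13651. Its second probe set, marked for a sequence family, had smaller log2 ratios of -0.97 and -0.76. Cyp26a1, the enzyme that clears retinoic acid, read 839 and 877 against 5643 and 4508, 6.72-fold and 5.14-fold lower. Glns-ps1, a copy of the glutamine synthetase gene, whose probes could also bind transcripts of the parent gene, read 834 and 1281 against 7118 and 6702, 8.53-fold and 5.23-fold lower. S100a13, a calcium-binding protein, read 2738 and 2600 against 14934 and 12197, 5.45-fold and 4.69-fold lower, and both its other readable probe sets were lower too (log2 ratios of -0.83 and -0.35, and bounds of -3.03 and -2.30). In all of these genes, the lowest Cry-labelled value stood above the highest Clock mutant value. Dynll2, Glns-ps1 and S100a13 stood near wild type on the Cry-labelled arrays, with wild-type values of 6825 and 6874 for Glns-ps1 and 11086 and 13766 for S100a13.

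Other genes lower at both times had varied roles. Apoa4, an apolipoprotein of triglyceride-rich particles, read 3355 and 1436 in the Clock mutant, 10676 and 15196 on the Cry-labelled arrays and 4024 and 4006 in wild type. At CT02 it was the Cry-labelled array that stood apart from wild type. At CT14 the Cry-labelled array read above wild type and the Clock mutant below it. The difference was 3.18-fold at CT02 and 10.6-fold at CT14. Zfp36l2, an RNA-binding protein that destabilises messenger RNA, read 1050 and 790 against 5216 and 3347, 4.97-fold and 4.24-fold lower. Stim1, the calcium sensor of the endoplasmic reticulum, read 1063 and 1452 against 3935 and 7725, 3.70-fold and 5.32-fold lower. The mannosidases of glycoprotein processing Man2a1 and Man1a were both lower, 4.998-fold and 2.80-fold for Man2a1 and 2.997-fold and 2.83-fold for Man1a. Ap2a2 of the endocytic adaptor (3.49-fold and 4.12-fold), Ddx6 (6.84-fold and 2.93-fold), Chchd7 (3.05-fold and 2.88-fold) and Slc9a3r1 (3.46-fold and 2.77-fold) were also lower. Other probe sets of Ap2a2 (0.23 and -0.61 as log2 ratios), Man1a (-0.85 and -0.11) and Ddx6 (-0.03 and -0.63, and 0.46 and 0.25) did not reach 2-fold. Pdia3, an endoplasmic reticulum chaperone, was 3.08-fold and 2.52-fold lower, and Abcc2, the canalicular export pump, was 2.62-fold and 2.98-fold lower.

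Where the Clock mutant gave no signal at either time, only bounds can be given. Ass1, an enzyme of the urea cycle, read 220 and -216 in the Clock mutant, 6631 and 2079 on the Cry-labelled arrays and 1505 and 2214 in wild type, at least 10.9-fold and at least 3.43-fold lower. Sdc4, a heparan sulfate proteoglycan, read 97 and -138 against 8667 and 1686, at least 14.3-fold and at least 2.78-fold lower. The Cry-labelled CT02 array was the high one for both genes. Aldoc (at least 3.30-fold and 5.07-fold), Cbr1 (at least 2.94-fold and 3.93-fold), Med27 (at least 6.63-fold and 3.11-fold), Chtf8 (at least 3.62-fold and 3.39-fold) and Pcp2 (at least 3.47-fold and 3.16-fold) had bounds of the same direction at CT02 and CT14. In all, 95 genes were at the floor on both Clock mutant arrays and above it on both Cry-labelled arrays. Of these, 20 were past 2-fold at both times. The reverse held for 95 genes, 18 of them past 2-fold at both times. Over all kept genes, 2.29% were at least 2-fold lower at both times and 1.3% higher. The filter used the mean over the 6 arrays. Some of these genes, such as Aldoc, were thus kept only through the genotype in which they read high. Their bounds and counts are no support for a difference between the genotypes.

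Genes that were higher in the Clock mutant at both times included secreted, lipid-binding and conjugating proteins. Cd59a, an inhibitor of the complement membrane attack complex, stood at 13650 and 10416 scaled units in the Clock mutant, 2601 and 2236 on the Cry-labelled arrays and 9754 and 7813 in wild type. It was 5.25-fold higher at CT02 and 4.66-fold higher at CT14, with both Cry-labelled values well under wild type. Apcs, serum amyloid P component, read 28399 and 22300 against 6619 and 5652, with 5981 and 4428 in wild type, 4.29-fold and 3.95-fold higher. In this gene it was the Clock mutant that stood apart. Fabp2 and Fabp5 encode fatty acid-binding proteins. Fabp2 read 14197 and 11855 against 3654 and 3425, 3.89-fold and 3.46-fold higher, and Fabp5 read 6860 and 7690 against 2053 and 2920, 3.34-fold and 2.63-fold higher. Igfals, the subunit that stabilises circulating insulin-like growth factor complexes, read 10823 and 10790 against 3476 and 2890, 3.11-fold and 3.73-fold higher. Fabp2 and Igfals resembled Cd59a in that wild type lay nearer the Clock mutant on the log scale, at 9201 and 8866 for Fabp2 and 7049 and 9278 for Igfals.

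Several of these genes belong to families whose members may share probes. Cyp2c39, a retinoic acid hydroxylase of a crowded cytochrome P450 family, read 6696 and 11563 in the Clock mutant, 1891 and 1852 on the Cry-labelled arrays and 981 and 394 in wild type, 3.54-fold and 6.24-fold higher. Gstm6, a glutathione transferase, read 7791 and 8654 against 2647 and 672, 2.94-fold and 12.9-fold higher, and its second probe set gave log2 ratios of 1.10 and at least 2.66. Gstm2 was 4.04-fold and 3.37-fold higher, while its second probe set had log2 ratios of 0.93 and 0.48. Among others, Aqp8, a water channel of the hepatocyte canalicular membrane, read 10958 and 6276 against 743 and 1644, 14.7-fold and 3.82-fold higher. Serpina12, vaspin, read 6647 and 6940 against 643 and 2846, 10.3-fold and 2.44-fold higher. Both had their lowest value on the Cry-labelled CT02 array. Ocel1 (3.69-fold and 3.72-fold), Fhit (4.31-fold and 3.59-fold), Gas2 (3.35-fold and 4.83-fold), Gas5 (2.95-fold and 3.41-fold) and Fkbp1b (2.70-fold and 2.49-fold) completed the 15 readable genes with the widest shared difference.

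Some genes gave no signal on 1 or both Cry-labelled arrays. Asgr2, a subunit of the asialoglycoprotein receptor, read 2909 and 6700 in the Clock mutant against 0 and -178, with lower bounds of 4.80-fold and 11.1-fold. Hao2, a peroxisomal hydroxy acid oxidase, read 2233 and 1983 against 103 and 21, with -6 and 19 in wild type, with lower bounds of 3.68-fold and 3.27-fold. Me1, malic enzyme, which supplies NADPH for fatty acid synthesis, read 7544 and 5641 against 420 and 1675, with 2839 and 2779 in wild type, at least 12.4-fold and 3.37-fold higher. Hao2 was thus read in the Clock mutant alone, whereas Me1 was also read in wild type. Prp2 (at least 4.53-fold and 3.18-fold), Fkbp11 (at least 3.97-fold and 2.998-fold), Adam11 (at least 3.47-fold and 3.25-fold), Meg3 (at least 3.03-fold and 2.90-fold), Srcin1, 5031439G07Rik and Grwd1 also had bounds past 2-fold at both times. Some of the genes given here, among them Asgr2, Hao2, Meg3 and Srcin1, passed the filter on dim genes only through their Clock mutant values.

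The 174 genes were checked on their other probe sets. These were 72 probe sets of 60 genes, of which 42 gave no signal for 1 or both times. Of the 30 readable ones, from 27 genes, 18 had the same direction as the brightest probe set at both times, 5 were at least 2-fold at both times, and 12 pointed the other way at a time. The 5 were those of Usp2, Lpl, Gstm6, S100a13 and Ak4.

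In contrast to the clock genes, the cholesterol synthesis pathway differed between the genotypes in a way that depended on time. All 16 kept enzymes of the pathway were lower in the Clock mutant than on the Cry-labelled array at CT14, 12 of them at least 2-fold, where 5.49% of all genes were. At CT02, 9 were higher and 6 lower, Hsd17b7 was at the floor on both arrays, and 3 were at least 2-fold higher, where 7% of all genes were. The median log2 ratio of the pathway was 0.26 at CT02 and -1.79 at CT14, against 0.01 and -0.01 over all genes; the CT02 median was -0.04 with values as deposited and -0.01 with the stricter filter on dim genes. For each of the 16 the ratio was lower at CT14 than at CT02, with a median change of -2.61; over all kept genes it was lower for 2475 of 4844, with a median change of -0.02. Hsd17b7 passed the filter on dim genes only through its Cry-labelled values, so its place among the 16 is no support for a difference. With no replicate, the change of the pathway between times was not tested.

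Sqle, squalene epoxidase, read 1807 and 1167 (CT02, CT14) in the Clock mutant, 2249 and 10257 on the Cry-labelled arrays and 773 and 890 in wild type. It was 1.24-fold lower at CT02 and 8.79-fold lower at CT14, and the Cry-labelled CT14 array stood above all others. Cyp51, lanosterol demethylase, read 1994 and 1280 against 2152 and 9805, 1.08-fold and 7.66-fold lower. Nsdhl, a sterol dehydrogenase, read 2315 and 2765 against 1642 and 12901, 1.41-fold higher and then 4.67-fold lower. Idi1, isopentenyl diphosphate isomerase, read 5052 and 4452 against 3902 and 19364, 1.29-fold higher and then 4.35-fold lower. For these 4 enzymes it was the Cry-labelled level that changed most between the times. In the next group the Clock mutant level differed as well. Fdps, which makes farnesyl diphosphate, read 21981 and 6852 in the Clock mutant and 11225 and 25308 on the Cry-labelled arrays, 1.96-fold higher and then 3.69-fold lower, and its second probe set agreed in sign (0.85 and -1.63). Lss, which closes the sterol rings, read 2812 and 906 against 1728 and 4883, 1.63-fold higher and then 5.39-fold lower. Hmgcs1, at the start of the pathway, read 14349 and 9399 against 2721 and 14318, 5.27-fold higher and then 1.52-fold lower. Mvd and Dhcr7 were past 2-fold in both directions, Mvd at 1874 and 594 against 375 and 2184, and Dhcr7 at 2009 and 768 against 601 and 1963.

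**Figure D3:**
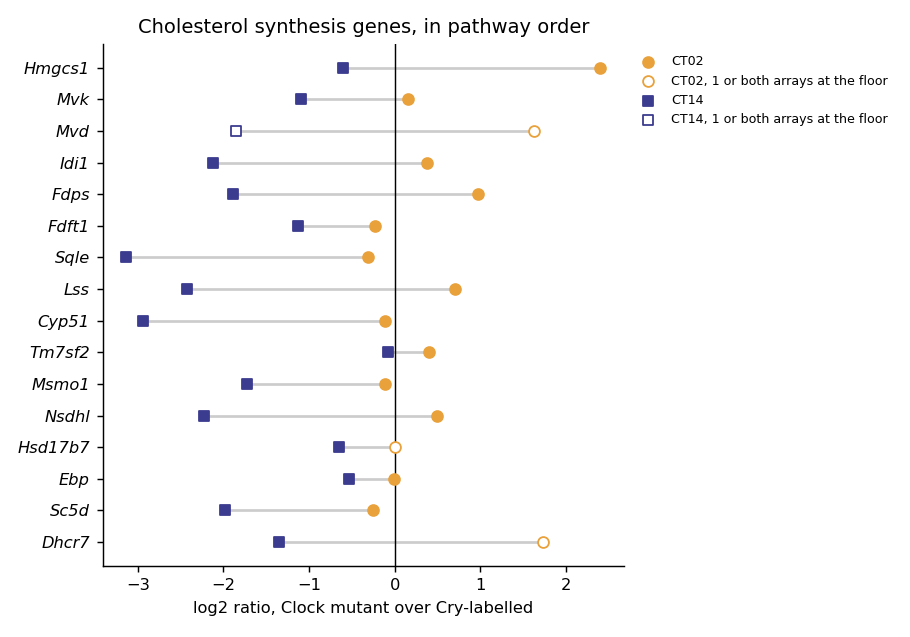
Log2 ratio of Clock mutant over Cry-labelled (x axis) for the 16 kept cholesterol synthesis genes in pathway order (y axis), circles for CT02 and squares for CT14, joined by a grey line; open symbols mark a ratio with 1 or both arrays at the floor. Every square lies left of 0 and left of its circle, and Hmgcs1, Mvd and Dhcr7 have the circles farthest to the right.

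Fatty acid synthesis genes showed a smaller change of the same sign. Of 13 kept genes, 12 had a lower ratio at CT14 than at CT02, as did 2475 of the 4844 kept genes, and the median log2 ratio was 0.57 at CT02 and -0.14 at CT14. Fasn, fatty acid synthase, read 16935 and 4924 in the Clock mutant and 10460 and 14036 on the Cry-labelled arrays, 1.62-fold higher and then 2.85-fold lower. Elovl6, a fatty acid elongase, read 4703 and 1456 against 3665 and 4743, 1.28-fold higher and then 3.26-fold lower. Me1, given above, was past 2-fold higher at both times. Pklr, pyruvate kinase of liver, read 3979 and 1796 against 846 and 1463, 4.70-fold and 1.23-fold higher. The exception to the common sign was Lpin1, a phosphatase of triglyceride synthesis, with log2 ratios of -1.42 and 0.49. Srebf1, which encodes a main activator of lipid synthesis genes, had log2 ratios of 1.02 and 0.32.

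The widest turn between times was that of the metallothioneins, small metal-binding proteins that metals, stress and glucocorticoids induce. Mt1 read -1044 and 13356 (CT02, CT14) in the Clock mutant, 9698 and -712 on the Cry-labelled arrays and -696 and 1136 in wild type. Mt2 read 1558 and 14582 in the Clock mutant, 9174 and 980 on the Cry-labelled arrays and 1261 and 1471 in wild type. Each mutant was thus high at a single and opposite time, and wild type was low at both. At CT02 Mt1 was at least 16-fold and Mt2 5.89-fold lower in the Clock mutant, and at CT14 Mt1 was at least 22-fold and Mt2 14.9-fold higher. The genes are close relatives, so they are not separate evidence.

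Several glucocorticoid-responsive genes turned the same way. The median log2 ratio of the 10 kept genes of that group, which include Mt2, was -0.94 at CT02 and 0.52 at CT14, 5 were at least 2-fold lower at CT02 (9.12% of all genes) and 2 at least 2-fold higher at CT14 (4.05% of all genes). With the stricter filter on dim genes the medians were 0.06 and -0.16. Zbtb16, a transcriptional repressor, read 433 and 1575 in the Clock mutant and 4441 and 712 on the Cry-labelled arrays, at least 7.33-fold lower and then 2.21-fold higher. Fkbp5, a cochaperone of the glucocorticoid receptor, read 230 and 2635 against 1860 and 1421, at least 3.07-fold lower and then 1.85-fold higher. Cebpd, a transcription factor of the acute phase, read 182 and 1602 against 1980 and 966, at least 3.27-fold lower and then 1.66-fold higher. All 3 were at the floor on the Clock mutant CT02 array, the dimmest one.

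Genes that turned the other way were lower in the Clock mutant at CT14 after being higher at CT02. Igfbp1, an insulin-suppressed binding protein of insulin-like growth factors, read 4284 and 1652 in the Clock mutant, 1176 and 7482 on the Cry-labelled arrays and 9554 and 188 in wild type, 3.64-fold higher and then 4.53-fold lower. Its probe set carries a mark for a sequence family. Asns, asparagine synthetase, a target of the amino acid response, read 3207 and 547 against 797 and 2908, 4.02-fold higher and then at least 4.80-fold lower. Tubb3, a tubulin, read 13626 and 2730 against 3852 and 5512, 3.54-fold higher and then 2.02-fold lower. The Tubb3 probe set carries the same mark for a sequence family, and its other probe set lay under the floor on every array. Itpk1 read 5991 and 1018 against 3504 and 4237, and Mug-ps1, a pseudogene of the murinoglobulin family, had log2 ratios of 0.46 and -2.42. In all, 13 genes went from 2-fold higher to 2-fold lower (0.268% of all genes) and 12 from 2-fold lower to 2-fold higher (0.248%). With values as deposited the share of the former among them was 25% in place of 52%.

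Among those that went from lower to higher, G0s2, an inhibitor of fat breakdown, read 2291 and 6172 in the Clock mutant and 4136 and 1644 on the Cry-labelled arrays, 1.81-fold lower and then 3.75-fold higher. Amacr, a racemase of branched fatty acids, read 2582 and 6495 against 6020 and 2242, 2.33-fold lower and then 2.90-fold higher. Rad51b (2086 and 2392 against 4260 and 725) and Ifnar2 (861 and 2291 against 2104 and 1018) were past 2-fold in both directions. A second Ifnar2 probe set near the floor gave a bound of 0.18 at CT02, so the sign of Ifnar2 there is unsettled. Renbp had log2 ratios of -0.85 and 1.62, and Myt1l of -2.14 and 0.41. Other wide changes between times came from 1 array. Eif4b, a translation factor, read 761 in the Clock mutant at CT02 and 3536 to 6274 on the other mutant arrays, and Sult1a1, a sulfotransferase, read 899 there and 5298 to 6452 on the others. Orm2, an acute phase glycoprotein, read 8530 on the Cry-labelled CT02 array and 954 to 1085 on the other mutant arrays. Hspbp1 (6.13-fold higher at CT02) and Gjb1, the main gap junction protein of hepatocytes (5.95-fold higher at CT02), had their lowest values on the Cry-labelled CT02 array, at 1359 and 3009.

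**Figure D4:**
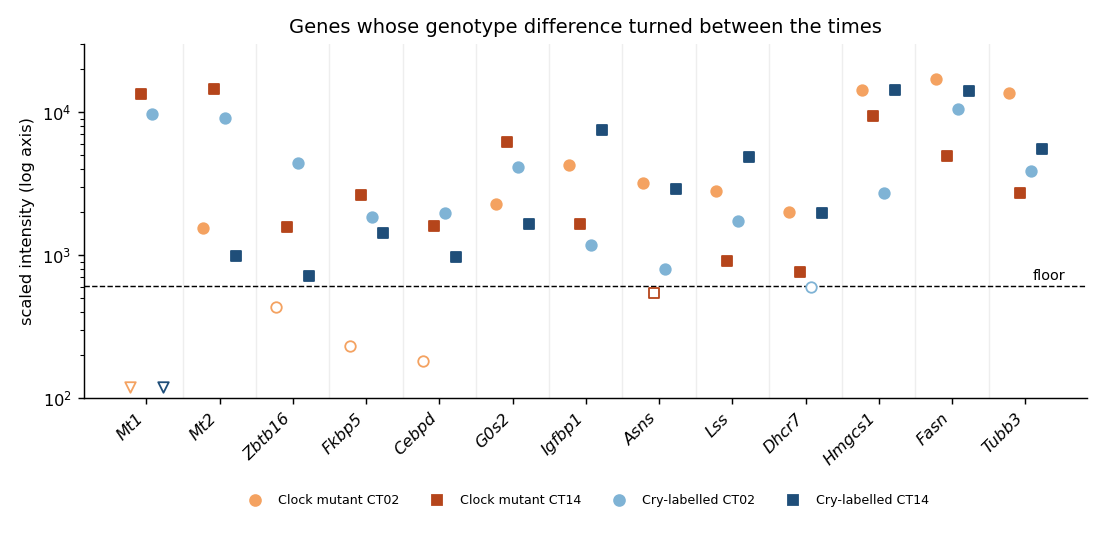
Scaled intensity (log axis, in scaled units) of genes whose ratio of Clock mutant over Cry-labelled changed sign between CT02 and CT14, on the 4 mutant arrays, by genotype and time. Each symbol is 1 array, open symbols lie at or below the floor of 606 units, and open triangles stand for values below the plotted range; Mt1 and Mt2 are high on the Clock mutant CT14 and Cry-labelled CT02 arrays, and some genes shown, such as Fasn and G0s2, were under 2-fold at 1 of the times.

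Markers of other cell types were read for a difference in the makeup of the tissue. In bulk liver, fewer cells of a type and less RNA per cell cannot be told apart. Of 11 kept macrophage markers, 7 were at least 2-fold lower in the Clock mutant at CT02, where 9.12% of all genes were, 1 was higher, and none was past 2-fold at CT14. Their summed level was 29443 and 30271 scaled units in the Clock mutant, 53318 and 41347 on the Cry-labelled arrays and 39015 and 37665 in wild type. C1qb, a complement subunit that macrophages make, read 1973 and 2800 against 6639 and 4605, and Cd5l, a scavenger protein, read 3118 and 3842 against 6447 and 2973. A second C1qb probe set had log2 ratios of -0.99 and 0.12, so the C1qb probe sets disagreed in sign at CT14. Marco, a scavenger receptor, read -206 and -149 in the Clock mutant and 2831 and 745 on the Cry-labelled arrays. Marco, among the 7, and Adgre1, among the 11, passed the filter on dim genes only through their Cry-labelled values. Their place in these counts is thus no support for a difference. C1qa went the other way, at 6165 and 5150 against 1508 and 4869, although C1qa, C1qb and C1qc form 1 protein complex. Fcer1g lay under the floor on all 6 arrays. Cd74, the invariant chain of antigen-presenting cells, read 3528 and 3532 against 13826 and 9537, 3.92-fold and 2.70-fold lower. The part of macrophages in the other differences was not tested.

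Markers of other cell types were partly readable. The T cell markers Cd3d, Cd3e, Cd3g, Cd8a, Cd2 and Cd5 and the neutrophil markers S100a8, S100a9, Ngp and Mpo lay under the floor on the 4 mutant arrays, and no bile duct marker was kept. Of the neutrophil markers that were read, Camp stood at 5409 and 2336 in the Clock mutant and 1946 and 2446 on the Cry-labelled arrays, 2.78-fold higher at CT02, and Elane had log2 ratios of 0.81 and -0.22. Among B cell markers, Ms4a1 had log2 ratios of 0.15 and 0.01, Ighm of -0.53 and 0.999, and Cd79b of -0.01 and 1.07. Of the fibroblast collagens, Col1a2 read 9886 and 8230 against 4583 and 5431, 2.16-fold and 1.52-fold higher, and Col3a1 had log2 ratios of 0.67 and 1.003. Another Col1a2 probe set read below 0 on every array. Col1a1 went the other way at CT14, at 714 and -238 against 477 and 1036, with bounds of 0.24 and -0.77. Their part in other differences was not tested. The 6 hepatocyte markers had median log2 ratios of -0.10 and -0.25. Alb, albumin, read 12219 and 6636 in the Clock mutant and 12424 and 8552 on the Cry-labelled arrays. Alb, Apoa2, Apoh, Fgb and Ttr, abundant products of hepatocytes, were above the floor on every array, whereas Apoa1 read only 609 and 146 in the Clock mutant and 2122 and 431 on the Cry-labelled arrays. The 6 endothelial markers had medians of -0.11 and -0.13, with none past 2-fold, and 3 pancreatic markers had 0.26 and -0.12. Cd4, the 1 T cell marker kept, read 1668 and 2932 in the Clock mutant and 189 and 2660 on the Cry-labelled arrays.

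Xenobiotic and lipid-oxidising enzymes had medians near 0 with wide single genes. Of 46 drug metabolism genes, 4 stood 2-fold or more above the Cry-labelled level at CT02 and 9 below, and 4 above and 4 below at CT14 (over all genes, 7% and 9.12% at CT02 and 4.05% and 5.49% at CT14), with median log2 ratios of -0.08 and -0.07. Those past 2-fold at both times were Cyp2c39, Gstm2 and Gstm6 among the higher and Cyp3a13 (-1.86 and -1.26) and Gsta4 (-1.64 and -1.30) among the lower. Of 20 fatty acid oxidation genes, 3 were lower past 2-fold at CT02 and 2 at CT14, beside 9.12% and 5.49% of all genes. Cyp4a14, an omega-hydroxylase that PPAR alpha drives, read 3541 and 8437 against 19104 and 15538, 5.39-fold and 1.84-fold lower, and its relative Cyp4a10 had log2 ratios of -1.78 and -0.998. Crat, carnitine acetyltransferase, read 453 and -634 against 1457 and 2299, at least 2.40-fold and at least 3.79-fold lower. Crat passed the filter on dim genes only through its Cry-labelled values, so its place in both fatty acid oxidation counts is no support for a difference. The 12 bile acid genes had medians of 0.08 and 0.01. Nr0b2, which encodes the repressor SHP, was 3.98-fold and 1.51-fold higher, Nr1h4, which encodes the bile acid receptor FXR, was 2.36-fold and 1.90-fold higher, and Cyp7a1, which commits cholesterol to bile acids, read 26 and 3461 against 2185 and 2901.

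Growth hormone targets included Igfals, given above, and Socs2, a suppressor of cytokine signals, which read 1325 and 8473 in the Clock mutant and 1050 and 2532 on the Cry-labelled arrays, 1.26-fold and 3.35-fold higher. The median log2 ratio of the 9 kept targets was 0.34 and 0.17, and turned to -0.09 at CT02 with values as deposited. Among unfolded protein response genes, Creld2 and Manf, both secreted chaperone-like factors, were 3.83-fold and 2.38-fold lower at CT14 and within 1.19-fold at CT02. Irf9, a transducer of interferon signals, was 2.52-fold lower at CT02 and at least 4.53-fold lower at CT14, and Irf7 was 2.11-fold and 1.75-fold lower, though a second Irf7 probe set near the floor gave bounds of 0.38 and -0.03. Of 10 interferon response genes, with medians of 0.42 and -0.38, these 2 were the ones past 2-fold at CT02. Over all genes 9.12% were at least 2-fold lower at that time. At CT14 2 of the 10 were at least 2-fold lower, beside 5.49% of all genes. The 9 genes known as male-biased in liver had medians of 0.26 and 0.00, and 12 cell cycle genes of 0.30 and -0.04. Large housekeeping groups held few genes past 2-fold, beside 7% higher and 9.12% lower at CT02 and 4.05% and 5.49% at CT14 over all genes. None of 34 proteasome genes was past 2-fold at either time (medians of -0.01 and -0.00), and of 64 oxidative phosphorylation genes 1, Atp5d, was lower past 2-fold at CT14, with other Atp5d probe sets at 0.05 and 0.54. The 23 ribosomal protein genes had medians of 0.10 and -0.08 and the 21 acute phase genes of 0.10 and 0.04.

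**Figure D5:**
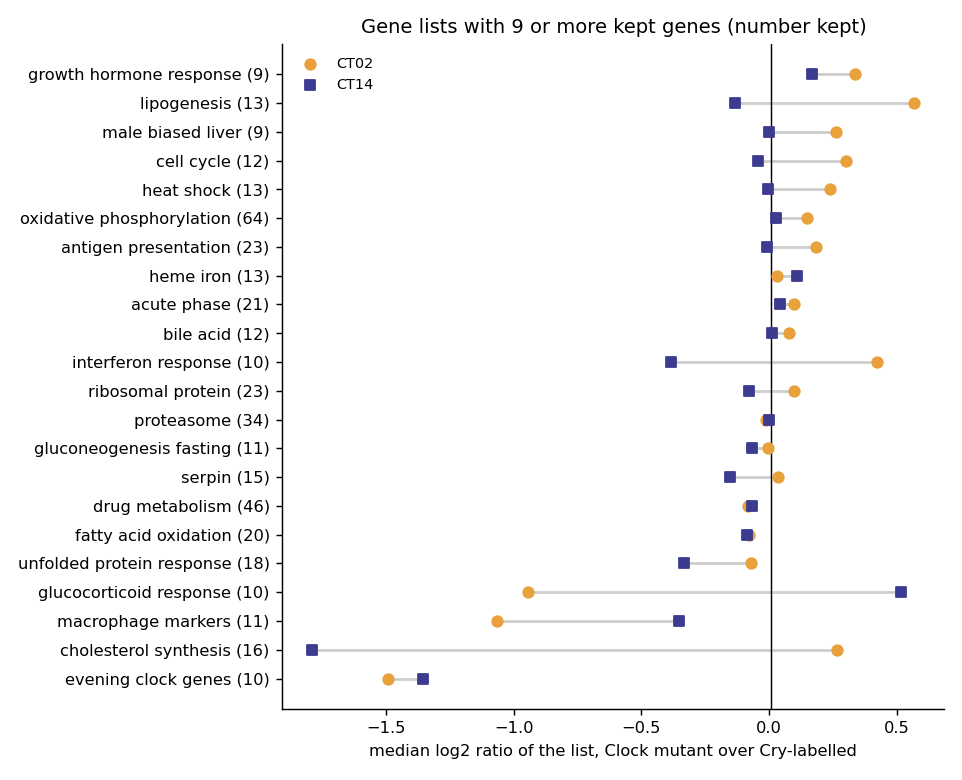
Median log2 ratio of Clock mutant over Cry-labelled (x axis) of gene groups with 9 or more kept genes (y axis, number kept in brackets), circles for CT02 and squares for CT14; the vertical line is the median of all kept genes at CT02 (0.01). Evening clock genes lie far to the left at both times (-1.49 and -1.36), cholesterol synthesis genes at CT14 alone (-1.79). The evening group includes Usp2 and Dbp and the cholesterol group Hsd17b7, which passed the filter on dim genes only through their Cry-labelled values.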

How the data were processed

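The 6 one-colour arrays of liver RNA were assigned to 3 genotypes and 2 circadian times by their titles. For every probe set of an array the authors deposited an intensity, whole numbers from -7799 to 33426, so some background had been subtracted; the software and steps were not given in the sources used here. Each array was scaled by its median ratio to the arrays' geometric mean, taken over 6065 bright probe sets (log2 offsets -0.43 to 0.20), values under the floor were set to it, and log2 was taken. Of 12488 probe sets, 66 were controls, and 10855 had 1 gene symbol in the platform's annotation, 396 several and 1237 none; those with several or none were not used. By gene number 10839 matched RefSeq (GRCm38.p6), which changed 0 symbols.

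The ratio is Clock mutant over Cry-deficient at each time. limma 3.58.1 (R 4.3.3; lmFit and eBayes, time as a block, Benjamini-Hochberg adjustment, two-sided, threshold 0.05) gave the only test. Tested on simulated data, it returned the sizes that had been put in but called none of them, so a gene it does not call may still differ. Nothing says whether the arrays are separate animals, so the p-values do not measure a spread between animals. The eBayes step pools error over genes, with 3.99 prior degrees of freedom beside the 1 residual degree of each gene. The p-values thus rest mostly on the pooled spread of all genes, and only in part on the arrays of the gene itself.

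Named were the clock and targeted genes, the 15 readable genes in each direction with the largest shared ratio, up to 10 with bounds, the 10 readable genes in each direction with the widest change between times, the 5 widest at each time, up to 4 members of each group, and genes past the limma threshold. Other genes named, such as Cyp3a13 and Gsta4, were picked with their values already seen. The members and the 41 gene lists were chosen with earlier results of these data known. The alternatives concerned scaling, floor, filter, probe sets, arrays and threshold (lowess span 0.3).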

Additional observations from a re-analysis of the deposited data

Results flagged for a closer look

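In 11 genes the ratio of Clock mutant over Cry-labelled was at least 2-fold in opposite directions at CT02 and CT14; whether the difference between the times exceeds array error was not tested. The values are the change of the log2 ratio, CT14 minus CT02, and the genes are those the text names; 25 kept genes met the same condition. It was negative for Asns (-4.27), Igfbp1 (-4.04), Mvd (-3.48), Dhcr7 (-3.08) and Tubb3 (-2.84). It was positive for Ifnar2 (2.46), Rad51b (2.75), Amacr (2.76), Zbtb16 (4.02), Mt2 (6.45) and Mt1 (8.46). A second Ifnar2 probe set near the floor had the other sign at CT02, so the turn of Ifnar2 is unsettled. Values at the floor make the changes of Asns, Mvd, Dhcr7, Zbtb16 and Mt1 lower bounds on their size.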

How the results depend on the processing

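With 1 array per genotype and time no array could be left out. The pairing by circadian time is the block of the limma fit, and no pairing by replicate could be made, since each group holds 1 array. Counts past 2-fold (781 genes at CT02, 462 at CT14, 174 at both times, 25 opposite) moved as follows. A floor at the 25th percentile gave 272 at both times and 48 opposite. A filter at the 75th percentile gave 294, 167, 72 and 7, with 31.1% of the CT14 genes higher. A threshold of 3-fold gave 226, 124, 47 and 5. The mean over probe sets gave 16 opposite. Genes above the floor on all 4 arrays, added after seeing the data, gave 90 at both times and 10 opposite. Values as deposited shifted the median of all genes to -0.37 at CT02 and -0.14 at CT14. Of the 174 genes, 146 were kept with values as deposited, 166 with quantile normalization, 167 with lowess and 123 with the mean over probe sets.

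The limma count of 2 became 13 with all 6 arrays, 28 with trend and robust settings, 6 above the floor on all 4 arrays, 71 with the 75th percentile filter and 42 at an adjusted p under 0.1. It became 0 (limma, with the number at an unadjusted p under 0.05) with values as deposited (947), quantile normalization (931), lowess (888), no filter (990), a floor at the 25th percentile (691), the mean over probe sets (879) and each probe set by itself (1064).

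Values as deposited turned CT02 medians to -0.0401 (cholesterol synthesis), -0.0910 (growth hormone), -0.16 (male-biased), -0.13 (cell cycle), -0.0142 (interferon) and -0.17 (pancreas). The 75th percentile filter turned CT02 medians to -0.0139 (cholesterol synthesis), 0.0610 (glucocorticoid) and -0.21 (cell cycle) and the CT14 glucocorticoid median to -0.16. Scaling on the mutant arrays alone, where another probe set was brightest, turned Ap2a2 at CT02 to 0.21 and Atp5d at CT14 to 0.0472. Other causes were not tested.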

Other observations

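Some differences concern genes outside the groups above. Cyp17a1, a steroid hydroxylase, had a log2 ratio of Clock mutant over Cry-labelled of -0.49 at CT02 and -2.30 at CT14, while a second probe set gave bounds of 1.62 and 0.98, so its direction is unsettled. Serpina1e and Serpina1c, which belong to a family of near-identical antitrypsin genes, had ratios of -0.07 and -0.21 at CT02 and -1.96 and -1.34 at CT14. Lbp, which binds bacterial lipopolysaccharide, had 0.13 and 1.30. Ccnd1, cyclin D1, had at least 1.55 at CT02 and 0.28 at CT14, with 1.47 and 1.03 on a second probe set. Mcm5, a replication licensing factor, had -1.21 at CT02 and at most -1.17 at CT14. A second Mcm5 probe set gave a bound of 0.82 at CT02, so the direction of Mcm5 is unsettled too. Rps4l, a ribosomal protein gene, had -1.87 and -1.26.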
